A study of Homo sapiens with 12 samples.

Results

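The comparison set U87 cells of the JQ1-resistant line, exposed to 1000 nM JQ1 for 24 h, against U87 cells of the parental line given only the solvent DMSO for 24 h. It used 4 of the 12 libraries of the series, 2 per group, taken by their labels, and 19093 genes were tested. U87 is an established human glioblastoma line, a malignant brain tumour of glial type, and the cells had been grown in serum-containing medium. The other libraries held parental cells in JQ1, resistant cells in DMSO, and both lines in dBET6, a degrader of BET proteins, again with 2 libraries each. How the resistant line had been selected, whether it is 1 clone, and whether its cells were kept in JQ1 before the 24 h, the labels do not say. Nor do they say whether the replicates came from separate cultures, so a p-value here reflects no more than how far libraries of a group lay apart, which may be technical. The question was which parts of the untreated parental expression state were present in the resistant line while JQ1 was in the medium.

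BET proteins read acetylated histones and help RNA polymerase II pass from promoter pausing into elongation. JQ1 fills their acetyl-lysine pockets and releases them from chromatin, and genes that depend on large enhancers are known for being sensitive to it. HEXIM1, an inhibitor of the elongation kinase P-TEFb, is a widely used marker of BET inhibition. Cells can become resistant to such inhibitors while the drug still reaches its target, by restoring or replacing the transcription of a subset of genes.

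Levels are CPM, each gene's share of a library's counts after TMM scaling, which sets libraries to each other by the bulk of their genes. A gene was called higher or lower at a Benjamini-Hochberg adjusted p under 0.05 in edgeR's quasi-likelihood test. Because a missed threshold does not show that a level was kept, a separate pair of one-sided tests on the same fit asked whether a gene lay within 1.5-fold (0.585 on the log2 scale) of the parental DMSO level. Log2 fold changes are given ± SE, and n = 2 libraries per group throughout.

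The 4 libraries held 33710124 to 36486809 estimated counts. Replicates correlated across genes at r = 0.992 in both groups (genes are not independent replicates). The RNA differed in make-up between the groups. Mitochondrially encoded mRNA took 1.46% and 1.65% of counts in parental DMSO and 2.35% and 2.70% in resistant JQ1, and the 50 most abundant genes took 12.5% and 12.7% against 18.0% and 18.2%. The part of these shares in the results below was not tested. All 8 mesenchymal markers of the line (among them VIM, CD44 and FN1) had a mean of at least 1 CPM in both groups, with summed levels of 8.96e+03 to 9.5e+03 CPM in parental DMSO and 1.14e+04 to 1.22e+04 in resistant JQ1. Lymphocyte markers summed to at most 0.161 CPM, and 5 of 8 myeloid markers lay under 0.1 CPM in both libraries of each group. The summed myeloid level was 352 to 357 CPM in parental DMSO and 360 to 376 in resistant JQ1, the astrocyte level 97.1 to 108 and 81.5 to 81.6, the neuron level 30.3 to 33.3 and 29.5 to 31, and the oligodendrocyte level 4.6 to 4.75 and 1.1 to 1.24. Endothelial markers summed to 8.76 to 10.1 and 6.36 to 6.73 CPM, and epithelial markers to 2.42 to 4.38 and 1.78 to 1.87. In bulk RNA, fewer cells with a transcript and less of it per cell cannot be told apart.

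Relative to the bulk of genes, 3882 of 19093 genes (20.3%) lay within 1.5-fold of the parental DMSO level, 5369 (28.1%) were higher and 5803 (30.4%) were lower in the resistant line in JQ1, so that 11172 (58.5%) differed in either direction. Both calls held for 1157 genes (6.06%), whose differences were small but larger than the error, and 5196 (27.2%) passed neither test. Among the differences of at least 2-fold, 2432 genes (12.7%) were higher and 2703 (14.2%) lower. The share within 1.5-fold followed the level of expression: it was 0 of 6170 genes under 1 CPM, 8.48% from 1 to 10 CPM, 37.9% from 10 to 100 CPM and 47.8% of 1779 genes at 100 CPM or more. The median SE fell from 0.639 in the lowest of these bins to 0.088 in the highest, so at low counts a kept level was not detectable. The libraries of both groups did not overlap for 15080 genes (79%).

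**Figure D1:**
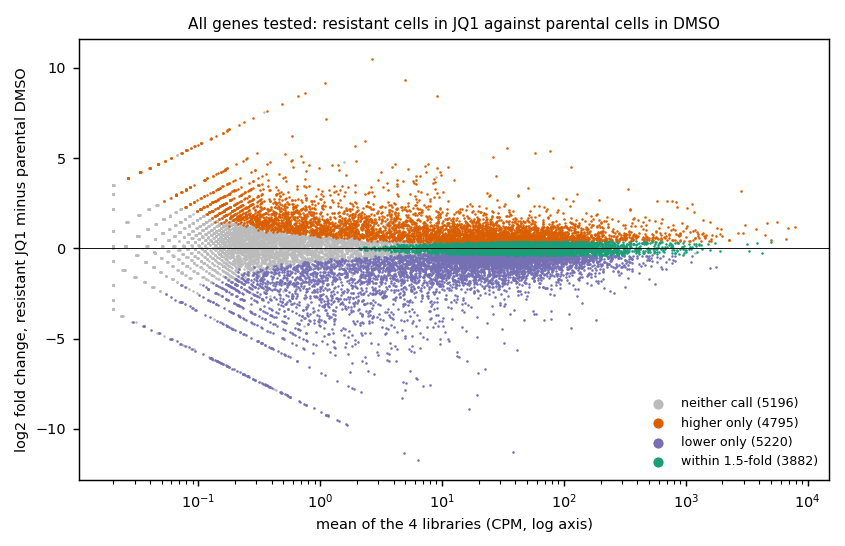
Log2 fold change of resistant JQ1 minus parental DMSO (y axis) against the mean CPM of the 4 libraries (x axis, log scale), 1 point per tested gene, coloured by call. The 3882 genes within 1.5-fold form the band around 0 and begin at about 1 CPM, with 4795 genes only higher above it and 5220 only lower below it.

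The same fit gave the neighbouring contrasts, which share libraries with this one, so their values are only set side by side. JQ1 in parental cells gave 4362 higher genes (22.8%), 4979 lower (26.1%) and 4857 within 1.5-fold (25.4%) against parental DMSO. Resistant cells in DMSO gave 3314 higher (17.4%), 4043 lower (21.2%) and 6565 within 1.5-fold (34.4%) against the same libraries. Resistant against parental cells, both in JQ1, gave 3209 higher (16.8%), 3636 lower (19%) and 6591 within 1.5-fold (34.5%). How the libraries are scaled decides what counts as kept. Scaling to total counts moved the median gene by -0.10, and 39.6% rather than 48.1% of calls were then higher. Scaling to the 13 mitochondrially encoded mRNAs moved it by -0.80, so that 8.81% of calls were higher and 0 genes lay within 1.5-fold. On log2 TPM (pseudocount 1) the median gene stood at -0.25, and 22 of 50 genes given below as within 1.5-fold lost that call. Every statement below on a kept level is therefore relative to the bulk of mRNA, in estimated counts.

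Some genes that JQ1 lowered in parental cells stood near their untreated parental level in resistant cells in JQ1, among them the cytokine gene LIF. In parental JQ1, 1834 genes (9.61% of those tested) were at least 2-fold lower and 1552 (8.13%) at least 2-fold higher than in parental DMSO. Both counts take in genes of every type and level, also low ones where a kept level was not detectable. How many of them passed the filters that follow was not counted, so no share is given. Among the 1834 and 1552, 22 and 17 protein-coding genes with a mean of at least 10 CPM also lay within 1.5-fold here and differed between the lines in JQ1. The 16 genes in this and the next 2 paragraphs were chosen from these for that pattern, so their values are a description. LIF (ENSG00000128342), a cytokine of the interleukin-6 family that signals through LIFR and gp130, stood at 57.0 and 63.0 CPM in parental DMSO and at 52.1 and 52.8 in resistant JQ1, a log2 fold change of -0.19 ± 0.10. Its levels were 8.38 and 6.34 CPM in parental JQ1 and 118 and 116 in resistant DMSO. The JQ1 libraries thus lay below the DMSO libraries in both lines, and the resistant DMSO libraries lay above all others. LIF lost the within-1.5-fold call without parental DMSO replicate 1 (log2 fold change -0.27, adjusted p = 0.055, edgeR).

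HGF (ENSG00000019991), the ligand of the MET receptor, stood at 29.1 and 27.6 CPM in parental DMSO and at 27.9 and 24.0 in resistant JQ1 (log2 fold change -0.13 ± 0.09). Parental cells in JQ1 held 3.89 and 3.78 CPM and resistant cells in DMSO 107 and 105. Estimated counts and length-scaled values differed for this gene: on the deposited FPKM its log2 fold change was -0.76 (limma-trend, adjusted p = 0.000183), and the cause was not tested. SEMA7A, a membrane-anchored semaphorin, stood at 147 and 163 CPM in parental DMSO, 39.1 and 39.6 in parental JQ1 and 128 and 134 in resistant JQ1, where it passed both as within 1.5-fold and as lower (log2 fold change -0.25 ± 0.09), and the groups did not overlap. SCG5, a chaperone of a prohormone convertase in secretory cells, stood at 40.9 and 38.4 CPM against 39.5 and 39 in resistant JQ1, with 13.7 and 15.4 in parental JQ1. SPRY4, a feedback inhibitor of receptor tyrosine kinase signalling, stood at 26.5 and 28.7 CPM against 24.8 and 25.7, with 6.79 and 5.90 in parental JQ1. For all 5 of these genes the resistant DMSO libraries lay above the parental DMSO libraries, from 185 and 190 CPM for SEMA7A to 55.3 and 53.5 for SPRY4. The same order held for FAR2, GDF15 and BRIX1.

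The opposite pattern, raised by JQ1 in parental cells and near the parental DMSO level in resistant cells in JQ1, held genes of varied function. NLRP1, an inflammasome sensor, stood at 37.0 and 40.5 CPM in parental DMSO, 120 and 118 in parental JQ1 and 43.7 and 45.2 in resistant JQ1 (log2 fold change 0.20 ± 0.09). P4HA1, a collagen prolyl hydroxylase subunit, stood at 27.7 and 26.7 CPM, 56.1 and 76.2, and 31.8 and 29.3 in the same order. AVPI1 stood at 20.6 and 20.9, 49.0 and 46.4, and 22.8 and 23.4 CPM. In resistant DMSO these 3 genes lay lower than in parental DMSO, at 19.2 and 21.6 CPM for NLRP1, 20.3 and 22.1 for P4HA1 and 10.8 and 10.3 for AVPI1. PCBP3, PAX8, FOXN3, ETFDH and MYL5 were the other genes of this kind. PAX8, like SEMA7A, was also called lower (log2 fold change -0.32 ± 0.10). ETFDH and MYL5 are encoded on chromosome 4 and PCBP3 on chromosome 21, whose genes were lower as a group (below). For resistant DMSO minus parental DMSO, the log2 fold changes of ETFDH, MYL5 and PCBP3 were -0.99, -0.49 and -1.14. On the deposited FPKM HGF, FAR2, GDF15, PCBP3, PAX8, FOXN3, ETFDH and MYL5 lost the within-1.5-fold call (limma-trend). Log2 fold changes there ran from -0.76 (HGF) to 0.425 (ETFDH). Of the 16, LIF, SEMA7A, GDF15, P4HA1, PAX8, ETFDH and MYL5 lost the within-1.5-fold call without 1 or more of the 4 libraries, where their log2 fold changes ran from -0.40 (PAX8) to 0.45 (MYL5).

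**Figure D2:**
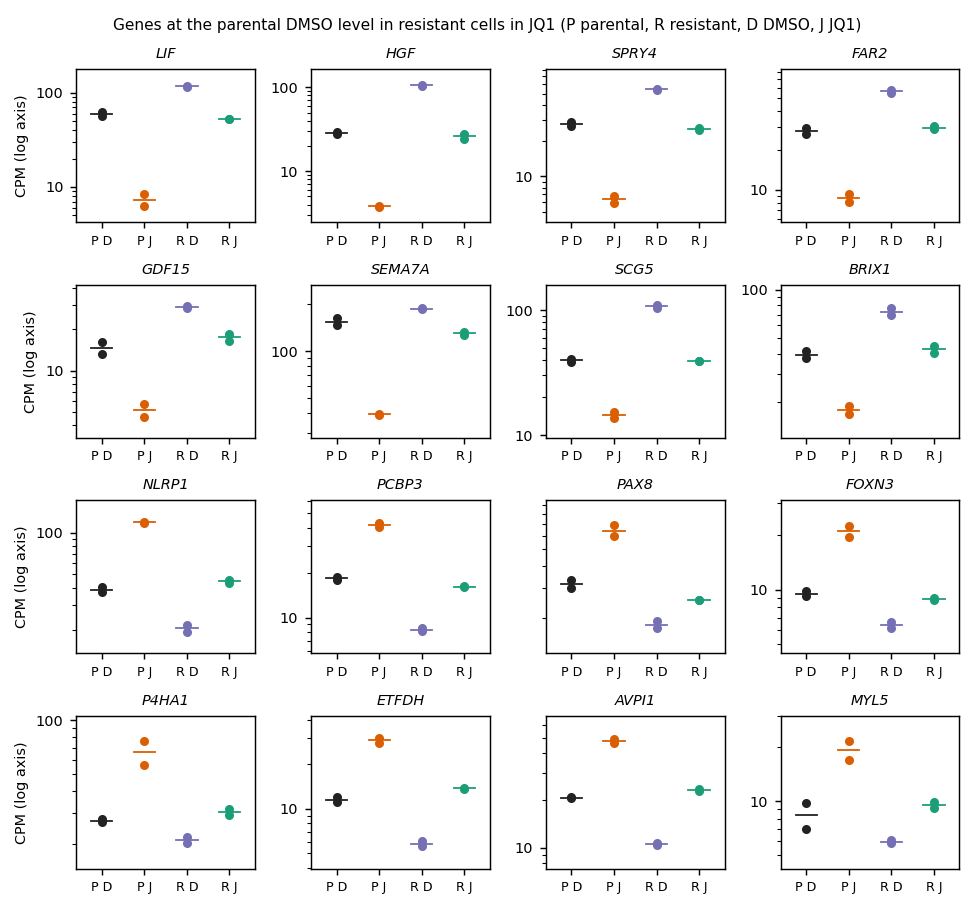
CPM of each library (points, log axis) and group mean (bar) for the 16 genes, by line and treatment (P parental, R resistant, D DMSO, J JQ1). In the upper 8 panels the parental JQ1 libraries lie lowest and the resistant DMSO libraries highest, and in the lower 8 the order is turned; resistant JQ1 lies near parental DMSO in all 16.

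Feedback genes of the ERK pathway, which growth factor receptors activate, split in this comparison. Of 16 tested, 6 lay within 1.5-fold, 3 were higher and 7 lower, with a median log2 fold change of -0.12 beside 0.02 over all genes. JQ1 in parental cells gave 1 higher and 14 lower of the same 16, with a median of -0.73. Besides SPRY4, kept members were PHLDA1, an apoptosis-related target of ERK (318 and 325 CPM against 300 and 297), and ETV5, an ETS transcription factor (66.7 and 69.5 against 69.2 and 75.6). SPRY2, another Sprouty inhibitor, stood above the parental level: 74.6 and 79.0 CPM in parental DMSO, 37.9 and 36.8 in parental JQ1 and 137 and 139 in resistant JQ1 (log2 fold change 0.85 ± 0.08, adjusted p = 1.49e-09, edgeR). ETV4 fell below it, from 33.5 and 36.2 CPM to 5.36 and 6.28 (log2 fold change -2.58 ± 0.12, adjusted p = 2.7e-16, edgeR), near the 5.07 and 4.51 CPM of parental JQ1.

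Growth factor ligands were mostly lower: 12 of 19 fell, 4 rose and 3 lay within 1.5-fold, with a median of -1.02. All 5 tested ligands encoded on chromosome 4, whose genes were lower as a group (below), were among the 12, and the other 14 had 7 lower and a median of -0.20. HBEGF, an EGF receptor ligand, was kept at 16.5 and 16.1 CPM against 18.6 and 17.8, with 8.23 and 7.64 in parental JQ1. EREG, a ligand of the same receptor on chromosome 4, stood at 78.4 and 78.1 CPM in parental DMSO and 36.5 and 32.1 in resistant JQ1, between these and the 16.2 and 17.2 of parental JQ1. NRG1, a ligand of ERBB3 and ERBB4, fell from 21.7 and 18.1 to 3.63 and 5.2 CPM (log2 fold change -2.17 ± 0.14). Among receptors 6 of 17 were higher, 8 lower and 4 within 1.5-fold (28.1%, 30.4% and 20.3% over all genes). AXL, a receptor tyrosine kinase of mesenchymal glioma cells, stood at 414 and 414 CPM against 369 and 388, and FGFR1 at 280 and 278 against 263 and 271. EGFR, the receptor of HBEGF and EREG, passed both tests at 156 and 145 CPM against 194 and 184 (log2 fold change 0.33 ± 0.09), but the higher call was lost on the deposited FPKM (0.15), the value was -0.03 on TPM, and the within-1.5-fold call was lost without 3 of the 4 libraries in turn. MET, the receptor of HGF, fell from 287 and 253 to 137 and 136 CPM (log2 fold change -0.99 ± 0.09), and EPHB2, an ephrin receptor, fell from 57.8 and 61.5 to 2.67 and 2.73. EPHB2 stood at 20.9 and 18.55 CPM in parental JQ1 and at 3.44 and 3.75 in resistant DMSO.

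Most nuclear-encoded genes of oxidative phosphorylation stood close to the untreated parental level, as they also did in the neighbouring contrasts. Of 44 nuclear-encoded subunits of oxidative phosphorylation, 28 lay within 1.5-fold (20.3% of all genes did), 9 were higher and 12 lower, with a median of -0.02. Against the same parental DMSO libraries, 34 of the 44 lay within 1.5-fold in parental JQ1 and 35 in resistant DMSO. These genes are abundant, and the share within 1.5-fold over all genes rises with abundance. SDHC, a membrane anchor of complex II, stood at 89.8 and 86.0 CPM against 86.0 and 87.9, and UQCRC2, a core protein of complex III, at 172 and 157 against 160 and 166. SDHA, the catalytic subunit of complex II, rose from 148 and 137 to 304 and 339 CPM. ATP5J and ATP5O, subunits of the ATP synthase encoded on chromosome 21, fell with log2 fold changes of -1.27 ± 0.09 and -1.17 ± 0.09. Autophagy and lysosome genes, which JQ1 moved upward in parental cells (21 higher and 9 lower of 41, median 0.27), had 25 of 41 within 1.5-fold here, 12 higher, 13 lower and a median of -0.06. GABARAPL2, a membrane protein of autophagosomes, stood at 50.03 and 44.6 CPM against 47.6 and 47.1. The lysosomal protease gene CTSS fell from 43.8 and 35.7 to 11 and 12.9 CPM, and TFEB, a transcription factor of lysosomal genes, from 3.35 and 3.5 to 0.323 and 0.421.

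Hypoxia and glycolysis genes went both ways. JQ1 in parental cells gave 22 higher and 4 lower of 36 with a median of 0.52, and resistant JQ1 against parental DMSO gave 12 higher, 15 lower and 14 within 1.5-fold with a median of -0.12. Between the lines in JQ1, 3 of the 36 were higher and 26 lower in resistant cells. HK1, the first enzyme of glycolysis, stood at 612 and 557 CPM against 538 and 590, and the lactate exporter SLC16A3 at 58.2 and 66.8 against 57.6 and 56.4. ADM, encoding the vasodilator peptide adrenomedullin, rose from 25.7 and 29.2 to 113 and 117 CPM and remained under the 195 and 182 of parental JQ1. BNIP3L, a mitophagy receptor, rose from 75.8 and 71.8 to 174 and 168, and PFKP, a phosphofructokinase, fell from 392 and 395 to 157 and 176. NRF2, the transcription factor of the oxidative stress response encoded by NFE2L2, was kept at 63.3 and 63.5 CPM against 62.1 and 65.8. Of its pathway, 17 of 29 were higher, 5 lower and 9 within 1.5-fold (median 0.38, which turned to -0.45 with mitochondrial mRNA scaling). TXN, encoding thioredoxin, stood at 200 and 206 CPM against 202 and 200, with 323 and 369 in parental JQ1. TXNRD1, its reductase, rose from 215 and 196 to 363 and 365, less than the 854 and 980 of parental JQ1. HMOX1, which degrades haem, rose from 174 and 218 to 1146 and 1278, above both parental groups.

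Among genes around the BET proteins and their degradation, the list that holds the cereblon ligase had the largest share within 1.5-fold (66.7%). Over all genes tested this share was 20.3%, with 37.9% from 10 to 100 CPM and 47.8% at 100 CPM or more. In the list of BET proteins and elongation factors 16 of 38 lay within 1.5-fold, 18 were higher and 8 lower, with a median of 0.19 (-0.62 with mitochondrial scaling and -0.02 on TPM). Against the same parental DMSO libraries, 20 of the 38 lay within 1.5-fold in parental JQ1 and 25 in resistant DMSO. BRD3 stood at 42.4 and 47.3 CPM against 41.2 and 41.5, and CDK12, an elongation kinase, at 126 and 125 against 134 and 131. BRD3 lost the within-1.5-fold call on the deposited FPKM (log2 fold change -0.30). AFF1, a scaffold of the super elongation complex encoded on chromosome 4, stood at 43.6 and 43.2 CPM in parental DMSO, 75.5 and 77.7 in parental JQ1 and 45.7 and 41.2 in resistant JQ1, but its log2 fold change was -0.37 on the deposited FPKM and -0.57 on TPM. HEXIM1 rose from 29.6 and 37.6 to 207 and 201 CPM (log2 fold change 2.60 ± 0.10, adjusted p = 8.27e-18, edgeR), with 191 and 196 in parental JQ1, so this marker of BET inhibition stood as high in both lines in JQ1. BRD2 rose from 76.0 and 82.7 to 293 and 296 CPM, with 318 and 324 in parental JQ1. Of 18 genes of the cereblon ligase and the NEDD8 pathway that activates cullin ligases, 12 lay within 1.5-fold, 3 were higher and 7 lower. In parental JQ1 14 of the 18 lay within 1.5-fold of parental DMSO and in resistant DMSO 13, so this share was not particular to resistant cells in JQ1. CUL4B, a cullin of the cereblon ligase, stood at 81.7 and 74.7 CPM against 77.3 and 72.3. CRBN, encoding cereblon, passed as higher at 23.5 and 21.1 against 28.8 and 27.8 CPM (log2 fold change 0.34 ± 0.10), but not without parental DMSO replicate 2 (0.26) or resistant JQ1 replicate 1 (0.31), and on TPM its value was -0.16. UBE2D3, a ubiquitin-conjugating enzyme encoded on chromosome 4, fell from 231 and 195 to 116 and 117. Chromatin repressors and remodellers of the Polycomb and SWI/SNF complexes had 18 of 33 within 1.5-fold, 8 higher and 15 lower (28.1% higher and 30.4% lower over all genes). In parental JQ1 16 of the 33 and in resistant DMSO 25 lay within 1.5-fold of parental DMSO. Nucleolar ribosome biogenesis factors had 17 of 34 within 1.5-fold, 13 higher and 9 lower (median 0.06, -0.06 with total counts). The same share was 22 of 34 in parental JQ1 and 29 in resistant DMSO. NOLC1, a nucleolar phosphoprotein, stood at 218 and 225 CPM against 216 and 232, while RRP1, encoded on chromosome 21, fell from 83.3 and 90.2 to 30.2 and 36.1.

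**Figure D3:**
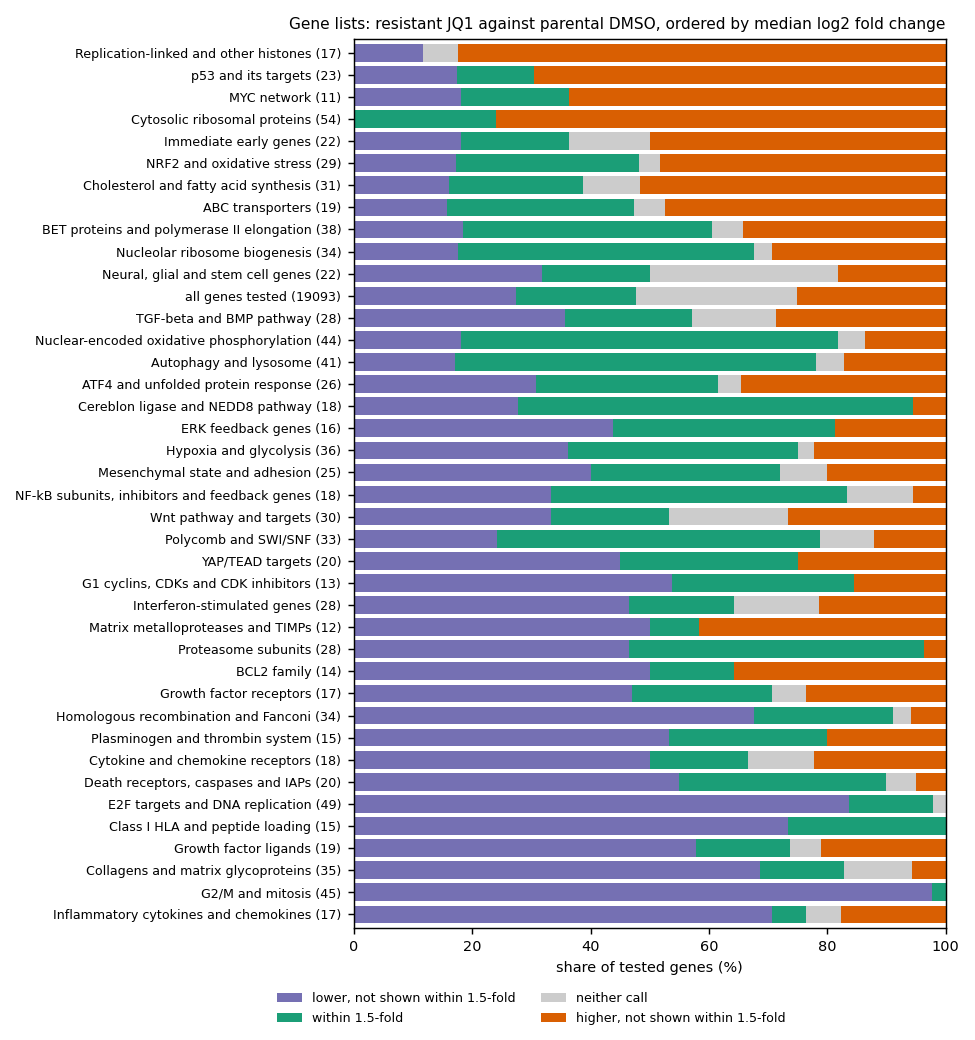
Share of the tested genes of each list (number in brackets) that were lower, within 1.5-fold, neither or higher in resistant JQ1 against parental DMSO, ordered by median log2 fold change. Oxidative phosphorylation (28 of 44) and cereblon and NEDD8 genes (12 of 18) have the widest middle segments, and histones and G2/M genes stand near the ends.

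MYC and cyclin D1 did not lie at the parental level but above it. MYC, a transcription factor of cell growth, stood at 68.7 and 70.0 CPM in parental DMSO and 115 and 115 in resistant JQ1 (log2 fold change 0.73 ± 0.09, adjusted p = 3.04e-08, edgeR), with 99.5 and 96.4 in parental JQ1. CCND1, which encodes cyclin D1, stood at 661 and 687 against 1098 and 1069 CPM (log2 fold change 0.68 ± 0.08, adjusted p = 5.76e-08, edgeR), with 635 and 648 in parental JQ1. Under mitochondrial mRNA scaling these 2 values turned to -0.09 and -0.14. MXD1 and MXD4, partners of MAX that oppose MYC, rose with log2 fold changes of 1.95 ± 0.12 and 1.23 ± 0.10. CDKN1A, encoding the CDK inhibitor p21, rose from 123 and 134 to 324 and 340 CPM (log2 fold change 1.37 ± 0.09). CCND3, encoding cyclin D3, fell from 87.6 and 92.1 to 31.1 and 32.2 CPM, and CDK2 from 85.3 and 85.0 to 35.8 and 36.4. RB1, the brake on E2F factors, was kept at 25.1 and 22.3 against 24.1 and 23.7, but lost this call on the deposited FPKM (log2 fold change -0.06).

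The proliferation programme of untreated parental cells was not kept. Of 45 tested genes of G2/M and mitosis, 44 fell (30.4% of all genes did), with a median of -1.46. The largest difference among them was that of CCNA2, encoding cyclin A2 on chromosome 4, which fell from 83.6 and 88.0 to 12.4 and 11.8 CPM (log2 fold change -2.83 ± 0.09, adjusted p = 5.21e-19, edgeR). AURKA, a kinase of spindle assembly, fell from 137 and 128 to 22.5 and 23.3 CPM, and PLK1, a kinase of mitotic entry, from 216 and 221 to 34.0 and 37.3. Parental cells in JQ1 lay between, at 38.3 and 38.6 for AURKA and 79.4 and 68.4 for PLK1. CDC25B, a phosphatase that activates CDK1, was the 1 gene of the list within 1.5-fold, at 87 and 95.4 against 96.1 and 95.7. Of 49 E2F targets and replication genes, 44 fell and 7 lay within 1.5-fold, with a median of -0.84. MCM5, a subunit of the replicative helicase, fell from 166 and 161 to 45.1 and 50.5 CPM, E2F1 from 192 and 193 to 92.4 and 89.4, E2F2 from 33.3 and 35.7 to 4.50 and 5.78, and MYBL2 from 132 and 145 to 32.4 and 35.9. CLSPN, a mediator of the replication checkpoint, was kept at 55.5 and 46.3 against 52 and 53, and POLD1, the catalytic subunit of DNA polymerase delta, at 112 and 116 against 105 and 108. Homologous recombination and Fanconi genes had 23 of 34 lower, 2 higher and 8 within 1.5-fold. FANCD2 fell from 46.3 and 39.7 to 10.3 and 9.38 CPM, and RBBP8, a factor that starts end resection, was kept at 63.2 and 56.1 against 56.7 and 59.4, with 34.1 and 34.5 in parental JQ1.

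Histone genes of the replication-linked clusters gave the highest log2 fold changes of all protein-coding genes named. HIST1H2BD (ENSG00000158373), which encodes histone H2B, stood at 1.36 and 1.44 CPM in parental DMSO and 65.9 and 67.4 in resistant JQ1 (log2 fold change 5.57 ± 0.15, adjusted p = 9.55e-22, edgeR). HIST1H2AC, which encodes H2A, rose from 3.41 and 3.84 to 146 and 154 CPM, and HIST2H2BE, another H2B gene, from 3.05 and 2.81 to 112 and 114. Parental JQ1 held 50.8 and 61.1, 88.1 and 90.7, and 68.1 and 71.3 CPM of these, so the rise was present in both lines in JQ1. The libraries were selected for polyA, and the main transcripts of such genes carry no polyA tail, so these values count polyadenylated forms. HIST2H2AA4 and HIST2H3C also ranked among the highest, but have near-identical copies between which reads are divided. Over the list, 14 of 17 histone genes were higher, 2 lower and 0 within 1.5-fold. Transcripts of 4 of the 17 were paired only in part (under 0.8 of the deposited FPKM), and of the other 13, 11 were higher and 2 lower. HIST1H2BK was among the 4. The median share of its deposited FPKM that was rebuilt over the libraries was 0, so its value here is a gap and not a level. The authors' deposited table lists it at 31.1 and 30.2 FPKM in parental DMSO and 165 and 198 in resistant JQ1. The lower members were H2AFZ, a variant histone gene on chromosome 4, and H2AFJ. The 250 bases before the start of the 3 leading genes are shown because these members moved together. They are the strand of the gene, from RefSeq on GRCh38.p14 (the files use hg19). Capitals mark the octamer ATTTGCAT or, on the other strand, ATGCAAAT, a motif known from H2B promoters.
HIST1H2AC, chr6:26123922-26124171, plus strand: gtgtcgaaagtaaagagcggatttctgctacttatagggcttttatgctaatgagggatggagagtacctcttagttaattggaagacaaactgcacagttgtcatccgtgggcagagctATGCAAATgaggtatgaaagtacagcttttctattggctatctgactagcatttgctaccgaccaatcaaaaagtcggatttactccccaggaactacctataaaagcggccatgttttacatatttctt
HIST2H2BE, chr1:149886683-149886932, minus strand: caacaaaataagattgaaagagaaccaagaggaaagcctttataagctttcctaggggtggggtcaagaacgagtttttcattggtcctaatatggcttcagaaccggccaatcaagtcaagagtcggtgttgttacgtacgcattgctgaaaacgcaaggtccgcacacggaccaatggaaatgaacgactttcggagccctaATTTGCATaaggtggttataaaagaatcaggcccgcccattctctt
HIST1H2BD, chr6:26157871-26158120, plus strand: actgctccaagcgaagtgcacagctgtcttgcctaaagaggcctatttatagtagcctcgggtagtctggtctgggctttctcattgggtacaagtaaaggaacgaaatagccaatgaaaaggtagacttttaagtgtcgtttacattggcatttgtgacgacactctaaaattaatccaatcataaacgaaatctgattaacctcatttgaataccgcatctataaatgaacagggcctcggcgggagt
The first sequence is, but for a few bases at its ends, also the window of HIST1H2BC, which is transcribed the other way, and its octamer lies on the strand of that H2B gene. HIST1H2BD holds no exact octamer in this window. On either strand the octamer was found in 1.63% of 35116 RefSeq promoter windows of this length and in 15 of 20 windows of clustered H2B genes. TATAAA was found in 10.7% and CCAAT in 32% of all windows. A match of letters is a description, not a binding site.

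Most cytokine and chemokine genes were lower, and the genes of NF-kB, transcription factors that drive them, were divided. Of 18 NF-kB subunits, inhibitors and feedback genes, 9 lay within 1.5-fold, 2 were higher and 6 lower, with a median of -0.16. RELA, the main activating subunit, stood at 95.1 and 104 CPM against 95.5 and 95.9, and its inhibitor NFKBIA at 28.5 and 31.5 against 30.7 and 33.3. NFKB1, a subunit encoded on chromosome 4, fell from 37.9 and 39.7 to 18.9 and 19.5, and TNFAIP3, a deubiquitinase that limits the pathway, from 29.2 and 26.8 to 5.95 and 6.02. Of 17 tested cytokines and chemokines, 12 fell, 3 rose and 1, LIF, lay within 1.5-fold, with a median of -2.27. Among the 12 were all 4 tested members on chromosome 4, and of the 13 elsewhere 8 were lower. IL1B, encoding interleukin-1 beta, stood at 28.4 and 27.0 CPM in parental DMSO, 0.449 and 0.590 in parental JQ1, 140 and 143 in resistant DMSO and 2.53 and 2.21 in resistant JQ1 (log2 fold change -3.55 ± 0.13, adjusted p = 8.73e-19, edgeR). LIF and IL1B were thus both raised in resistant DMSO, yet in JQ1 LIF stood at the parental level and IL1B below it. CSF3, a granulocyte growth factor, fell from 114 and 144 to 26.9 and 26.7 CPM, and IL8, a neutrophil chemokine encoded on chromosome 4, from 20.6 and 22.7 to 0.781 and 0.552. Of 18 cytokine receptors 4 were higher, 9 lower and 3 within 1.5-fold. LIFR, a receptor of LIF, rose from 21 and 19.4 to 152 and 131 CPM, and was 125 and 115 in resistant DMSO. CCR1, a chemokine receptor, fell from 31.1 and 31.8 to 0.512 and 0.315, with 1.47 and 1.5 in parental JQ1 and 12.4 and 11.4 in resistant DMSO.

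The plasminogen system, secreted proteases and inhibitors that remodel matrix and clots, had 9 of 15 lower, 5 higher and 4 within 1.5-fold. PLAU, encoding urokinase, fell from 199 and 208 to 15.1 and 17.2 CPM (log2 fold change -3.66 ± 0.10, adjusted p = 2.42e-20, edgeR), with 17.6 and 14.3 in parental JQ1. SERPINB2, a urokinase inhibitor, fell from 60.2 and 58.3 to 7.43 and 6.73, and THBD, encoding thrombomodulin, from 24.1 and 28.0 to 3.55 and 3.6. Collagens and matrix glycoproteins had 27 of 35 lower, 3 higher and 5 within 1.5-fold, with a median of -1.13. COL5A1, a fibrillar collagen chain, fell from 56.4 and 68.9 to 1.72 and 1.58 CPM, where parental JQ1 held 31.3 and 28.6 and resistant DMSO 5.22 and 5.69. LOX, a collagen cross-linking enzyme, fell from 99.6 and 105 to 9.50 and 8.96. LTBP2, a fibrillin-like matrix protein, fell from 47.6 and 50.3 to 3.96 and 4.02. FN1, encoding fibronectin, was kept at 1454 and 1300 against 1370 and 1349 CPM, with 1043 and 1016 in parental JQ1 and 2160 and 2177 in resistant DMSO. Of the metalloprotease list 7 of 12 were lower and 5 higher. MMP3, stromelysin-1, fell from 138 and 120 to 7.81 and 8.86, with 80.9 and 90.3 in parental JQ1 and 13.3 and 11.2 in resistant DMSO. TIMP1, a metalloprotease inhibitor, rose from 315 and 368 to 1825 and 1975, with 419 and 406 in parental JQ1 and 623 and 682 in resistant DMSO.

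Of 25 genes of the mesenchymal state and adhesion, 8 lay within 1.5-fold, 5 were higher and 11 lower. The integrin chains ITGB1 and ITGAV, receptors for matrix, were kept at 622 and 511 against 586 and 561 CPM and at 81.8 and 74.2 against 78.9 and 72.6. VIM, encoding vimentin, rose from 5182 and 5827 to 7393 and 8195 CPM (log2 fold change 0.50 ± 0.09, -0.32 with mitochondrial scaling), and CD44, a hyaluronan receptor, fell from 616 and 615 to 385 and 399. CHI3L1, a secreted marker of mesenchymal glioblastoma, rose from 210 and 220 to 1341 and 1335, and CDH2, encoding N-cadherin, from 38.4 and 38.0 to 95.1 and 99.7. Both stood near these levels in resistant DMSO too, at 1180 and 1267 and at 86.6 and 81.2.

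Of the 10 protein-coding genes with the lowest log2 fold changes among those with a mean of at least 10 CPM, 6 lay under 1 CPM in every resistant library and above it in every parental one. IL13RA2 (ENSG00000123496), a decoy receptor of interleukin-13 and a known glioma antigen, had 6394 counts over both parental DMSO libraries and 2 over both resistant JQ1 libraries, a scaled ratio of 2854 (790 to 23572, 95% interval for counting error only). PCDH7, a protocadherin, had 2820 against 5 counts (ratio 504, 216 to 1552), and IGFBP7, a secreted binder of growth factors, 3249 against 10 (ratio 290, 158 to 605). UBE2K, a ubiquitin-conjugating enzyme that most cells express, stood at 38.6 and 39.4 CPM against 0.350 and 0.289, and at 0.260 and 0.287 in resistant DMSO. PCDH7, IGFBP7 and UBE2K are encoded on chromosome 4. TIMP3, another metalloprotease inhibitor, stood at 46.0 and 43.6 against 0.431 and 0.421 CPM, and LDOC1 at 27.4 and 26.8 against 0.538 and 0.289. The other members were TNFAIP2, PNLIPRP3, SP140 and CCR1, the last of which was present in resistant DMSO and low in parental JQ1 (values above). SP140, a bromodomain-containing nuclear body protein, fell in steps: 84.5 and 78.0 CPM in parental DMSO, 12.3 and 13 in parental JQ1, 9.31 and 7.74 in resistant DMSO and 1.27 and 1.97 in resistant JQ1.

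At the other end, apart from histones, stood CNDP1, MORC1, CPA4, EGR1 and VAMP1. CPA4, a secreted carboxypeptidase, rose from 64.3 and 60.5 CPM to 617 and 607 (log2 fold change 3.29 ± 0.09), with 237 and 254 in parental JQ1 and 83.5 and 96.4 in resistant DMSO. EGR1, an immediate early transcription factor induced by ERK signalling, rose from 28.9 and 28.8 to 238 and 221 CPM (log2 fold change 2.99 ± 0.10), where parental JQ1 held 44.5 and 37.8 and resistant DMSO 79.2 and 82.2. CNDP1, a dipeptidase, rose from 1.71 and 1.66 to 23.7 and 23.2, MORC1 from 9.13 and 8.91 to 103 and 81.5, and VAMP1, a vesicle fusion protein, from 5.26 and 6.12 to 46.1 and 41.9. FOS rose with EGR1, from 1.41 and 1.42 to 12.5 and 11.8 CPM, and ATF3 from 7.24 and 7.12 to 20.0 and 20.7, while JUN was kept at 367 and 411 against 391 and 400. Over 22 immediate early genes 11 were higher, 4 lower and 4 within 1.5-fold (median 0.42, turned to -0.41 with mitochondrial scaling and 0.70 without 2 members paired only in part).

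**Figure D4:**
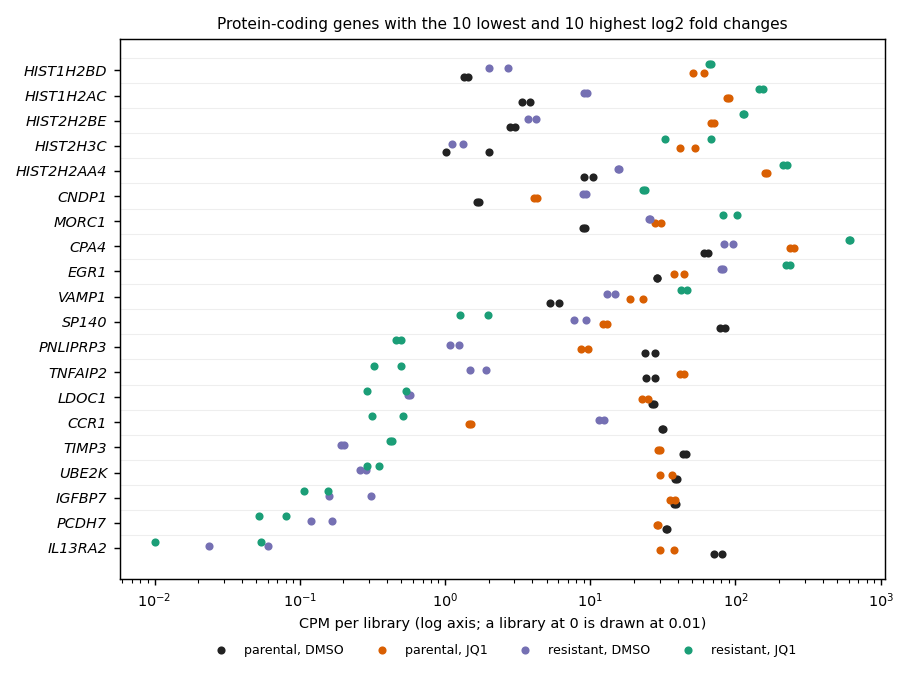
CPM of each library (log axis, a library at 0 drawn at 0.01) for the 10 protein-coding genes with the highest and the 10 with the lowest log2 fold change, by line and treatment. Histone genes are high in both JQ1 groups, whereas IL13RA2, PCDH7, IGFBP7, UBE2K, TIMP3 and LDOC1 are under 1 CPM in both resistant groups.

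Other pathways gave smaller or divided differences, beside 28.1% higher, 30.4% lower and 20.3% within 1.5-fold over all genes. Of 23 genes of p53 and its targets, 16 were higher, 5 lower and 3 within 1.5-fold (median 0.77, -0.05 with mitochondrial scaling), with TP53INP1, a stress-induced autophagy regulator, rising from 10.6 and 9.27 to 50.3 and 47.6 CPM. In the BCL2 family of apoptosis regulators 6 of 14 were higher and 7 lower. The pro-apoptotic members BCL2L11 and PMAIP1 rose with log2 fold changes of 1.88 ± 0.13 and 1.11 ± 0.11, and the anti-apoptotic BCL2L1 fell from 105 and 108 to 56.7 and 58.9 CPM, although only 0.736 of its deposited FPKM was rebuilt from its transcripts. Not all members split this way. The anti-apoptotic MCL1 was called higher and also within 1.5-fold (log2 fold change 0.30 ± 0.085), and the pro-apoptotic BID lay within 1.5-fold (-0.22 ± 0.10). CFLAR, an inhibitor of caspase-8, fell from 54.7 and 50.2 to 29.2 and 29.2. Targets of YAP and TEAD, the effectors of the Hippo pathway, had 5 of 20 higher, 11 lower and 6 within 1.5-fold, and CYR61 and CTGF, its best known targets, rose with log2 fold changes of 1.58 ± 0.09 and 1.51 ± 0.10. Wnt genes had 9 of 30 higher, 11 lower and 6 within 1.5-fold, near the shares over all genes. The ligand WNT5A fell from 117 and 122 to 26.4 and 24.7 CPM, near the 24.2 and 22.9 of parental JQ1, and WNT7B from 200 and 230 to 42.9 and 46.3, while RNF43, which removes Wnt receptors, fell from 8.07 and 8.73 to 0.189 and 0.158. In resistant DMSO RNF43 stood at 0.160 and 0.3585 CPM. In the TGF-beta and BMP pathway 9 of 28 were higher, 12 lower and 6 within 1.5-fold. TGFB1 rose from 225 and 256 to 650 and 670 CPM, and ID3, a BMP target, fell from 62.7 and 68.2 to 23.8 and 25.9, although JQ1 raised it in parental cells to 160 and 155.

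Class I antigen presentation genes were mostly lower, and interferon genes were divided: 11 of 15 class I HLA and loading genes fell, 2 rose and 4 lay within 1.5-fold (median -0.97), and 14 of 28 interferon-stimulated genes fell, with 6 higher and 5 within 1.5-fold. HLA-B, a gene whose alleles and relatives share sequence, fell from 64.2 and 66.6 to 16.9 and 18.7 CPM. It stood at 66.45 and 67.8 in parental JQ1 and at 17.4 and 19.8 in resistant DMSO. B2M, the invariant light chain, was kept at 681 and 594 against 624 and 599, with 818 and 900 in parental JQ1. IFITM3, a membrane protein that restricts viruses, fell from 28.5 and 29.9 to 2.88 and 3.71, and TRIM22 from 22.6 and 20.4 to 1.80 and 2.58. Resistant DMSO held 4.98 and 5.38 CPM of IFITM3 and 23.15 and 22.6 of TRIM22. IRF1, an inducer of such genes, was kept at 14.6 and 14.1 against 15.4 and 15.2. Cytosolic ribosomal protein genes, which have many processed copies in the genome, had 50 of 54 higher, 0 lower and 13 within 1.5-fold (median 0.60, -0.22 with mitochondrial scaling). RPL28 rose from 665 and 744 to 1939 and 2238 CPM and RPL6 was kept at 741 and 751 against 766 and 837. Of 28 proteasome subunits 22 were lower and 14 within 1.5-fold, with a median of -0.35. PSMC3 fell from 234 and 229 to 89.0 and 93.0 CPM, and PSMC5, another ATPase subunit of the proteasome cap, was kept at 164 and 163 against 165 and 186. Cholesterol and fatty acid synthesis genes had 18 of 31 higher, 6 lower and 7 within 1.5-fold (median 0.36, -0.45 with mitochondrial scaling). INSIG1, a sterol sensor partner, rose from 76.7 and 72.2 to 267 and 253 CPM and HMGCS1, an early enzyme of the pathway, from 12.1 and 10.5 to 42.7 and 36.8, while CYP51A1, a later one, was kept at 47.4 and 46.3 against 48.6 and 47.4. Of 19 ABC transporters 11 were higher, 3 lower and 6 within 1.5-fold (median 0.36, -0.47 with mitochondrial scaling), among them ABCC10, a drug efflux pump, at 13.3 and 13.8 against 43.9 and 46.9. GCLC, the limiting enzyme of glutathione synthesis, rose from 30.4 and 30.0 to 79.3 and 78.8. PEG10, an imprinted gene of retrotransposon origin, rose from 168 and 157 to 1019 and 977, less than the 3110 and 3490 of parental JQ1. SERPINI1, a neuronal serine protease inhibitor known as a marker of BET inhibition, rose from 0.877 and 1.08 to 1.70 and 1.74 CPM (log2 fold change 0.81 ± 0.23, -0.01 with mitochondrial scaling), with 5.76 and 6.22 in parental JQ1. Its counts over both libraries of a group were 31 in resistant DMSO and 129 in resistant JQ1, beside 82 in parental DMSO and 442 in parental JQ1.

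By position, 2 chromosomes stood below the rest. Of 665 tested genes on chromosome 4, 388 were lower, 55 higher and 66 within 1.5-fold, with a median of -0.74, and of 209 on chromosome 21, 105 were lower, 19 higher and 18 within 1.5-fold, with a median of -0.57. The medians of the same genes were -0.68 and -0.63 for resistant DMSO minus parental DMSO and -0.02 and 0.09 for parental JQ1 minus parental DMSO. Chromosome 19 stood above the rest, with 563 of 1330 genes higher, 243 lower and a median of 0.41, and chromosome 13 had a median of 0.22. The labels give no copy number for either line, and its part in the genes named on these chromosomes was not tested.

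**Figure D5:**
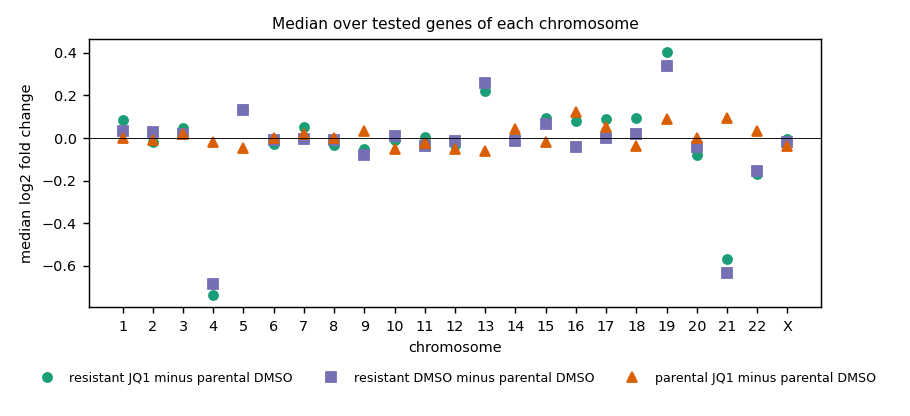
Median log2 fold change of the tested genes of each chromosome for 3 contrasts. Chromosomes 4 and 21 lie at -0.74 and -0.57 for resistant JQ1 minus parental DMSO (circles) and at -0.68 and -0.63 for resistant DMSO minus parental DMSO (squares), and near 0 for parental JQ1 minus parental DMSO (triangles).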

How the data were processed

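PolyA RNA had been sequenced from 12 U87 libraries, 2 for each of 6 groups. For each library the authors deposited kallisto output per transcript: an estimated count, not normalized, and a TPM, a relative abundance, both per the file headers and the submitters' processing notes. They also deposited FPKM per gene in a single table. The submitters' processing notes name kallisto, DESeq2 and hg19 without saying how they were combined, and the versions were not given in the sources used here.

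Of 196354 transcripts, 92.6% were paired with genes by ID through GENCODE release 29, which postdates the annotation behind the files and also supplied the chromosome names. Estimated counts were summed per gene (52271 of the 57773 genes of the FPKM table) and rounded. For 82.0% of 10511 checked genes the summed TPM lay within 1% of the FPKM once a factor per library was removed, whereas 5.85% fell short of 0.8 of it. Of the printed genes with CPM values, BCL2L1 was rebuilt at 0.736, BRD3, NRG1 and TXNRD1 at 0.891, 0.886 and 0.887, and BRD2, SPRY2, LTBP2, P4HA1 and SEMA7A at 0.915, 0.911, 0.927, 0.935 and 0.938. Of 1000 genes in the lists 40 lay under 0.8, and list counts without them were added after the data were seen.

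Genes kept by filterByExpr (19093) were scaled by TMM and fitted with edgeR 4.0.16 (quasi-likelihood, robust, R 4.3.3) on all 12 libraries, 1 coefficient per group, leaving 6 residual degrees of freedom. Benjamini-Hochberg adjustment ran over every gene tested, with calls at 0.05. The biological coefficient of variation was 7.88%. The within-1.5-fold test used the same fit, with the larger of both one-sided p-values adjusted likewise. In simulated data 18104 of 18304 genes were unchanged, and 59.8% of these passed it. So did 8% of 50 genes with a true 1.5-fold change. Of the simulated calls of a difference, 6.85% were false. In the real data 58.5% of genes differed, so this simulation cannot show how TMM scaling held there. The estimated counts set the precision: over the 4 libraries compared, totals were 33710124 to 36486809.

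The rule for names took the 10 highest and 10 lowest log2 fold changes of called protein-coding genes whose mean reached 10 CPM and whose libraries did not overlap. Also named were up to 8 genes each way at the parental level that JQ1 moved at least 2-fold in parental cells and that differed between the lines in JQ1, up to 3 changed and 2 kept members per list by smallest p, and a set of fixed genes. The text prints part of them, and members named only for their place in a list's count were chosen after their values were seen. The comparison, the 39 gene lists and the marker lists were chosen with earlier results of these data known. Alternatives were DESeq2 size factors, total counts, mitochondrial mRNA scaling, the DESeq2 Wald test (1.42.0), 2 other filters, limma-trend (3.58.1) on log2 TPM (pseudocounts 1 and 0.1) and on the deposited log2 FPKM (pseudocount 1), fewer libraries, a replicate block and other margins. Transcripts without a paired gene and protein levels were not analysed here. Some genes are not reported here.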

Additional observations from a re-analysis of the deposited data

How the results depend on the processing

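The main counts were 5369 higher, 5803 lower and 3882 within 1.5-fold. With mitochondrial mRNA scaling they were 1032, 10682 and 0. With a mean of at least 10 CPM, which left 8853 genes, 3248 were higher and 3219 lower. On the deposited log2 FPKM 3433 were higher. On log2 TPM 2529 (pseudocount 1) and 2306 (pseudocount 0.1) were higher, and 1727 were within 1.5-fold at pseudocount 0.1. A narrower margin gave 0 genes within it, in the same edgeR fit, and a 2-fold margin 8175. The replicate block gave 5290 higher, 5741 lower and 3776 within 1.5-fold. The replicate numbers paired no samples by the labels. Deviations of same-numbered libraries from their group means correlated at 0.029 across genes between the 2 groups. Leaving out 1 library gave 4349 to 5403 higher, 5118 to 5922 lower and 2716 to 3878 within 1.5-fold, and 69.4% to 77.3% of the genes within 1.5-fold stayed so without 1 of the 4 libraries compared.

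With mitochondrial mRNA scaling the sign of the log2 fold change turned for the following printed genes, all to below 0: AFF1 (-0.82), AVPI1 (-0.67), BRIX1 (-0.71), CCND1 (-0.14), CDC25B (-0.75), CDK12 (-0.74), CLSPN (-0.77), CRBN (-0.48), CYP51A1 (-0.79), EGFR (-0.49), ETFDH (-0.56), ETV5 (-0.73), FAR2 (-0.73), GABARAPL2 (-0.82), GDF15 (-0.58), HBEGF (-0.66), IRF1 (-0.73), ITGB1 (-0.80), JUN (-0.80), MYC (-0.093), MYL5 (-0.64), NFE2L2 (-0.81), NFKBIA (-0.73), NLRP1 (-0.63), NOLC1 (-0.80), P4HA1 (-0.66), PSMC5 (-0.71), RB1 (-0.80), RPL6 (-0.72), SERPINI1 (-0.009) and VIM (-0.32). On log2 TPM with pseudocounts 1 and 0.1 the values turned to -0.57 and -0.62 for AFF1, -0.16 for CRBN, -0.030 and -0.031 for EGFR, -0.39 and -0.40 for ETV5, -0.26 for GABARAPL2, -0.30 for ITGB1, -0.20 for JUN and -0.28 for NOLC1. On log2 FPKM AFF1 turned to -0.37. The shift of all genes by these scalings is given in the report, and beyond it the cause was not tested.

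Of 50 genes printed as within 1.5-fold, 50 lost that call with mitochondrial scaling and with the narrower margin, 11 on log2 FPKM, 22 and 29 on log2 TPM (pseudocounts 1 and 0.1), and 0 with DESeq2 size factors, the replicate block or only the 4 libraries compared. MCL1 and BID are not among these 50, nor in the values per gene of the paragraph before. With n = 2 and a shared spread, genes under about 1 CPM could not be shown as kept. Without 1 library an arm holds 1 sample, which is assumed to vary like the other groups.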
